A study of Mus musculus with 12 samples.

Results

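The genes described here encode lysosomal hydrolases, their cofactors and lysosomal membrane proteins, in mouse bone marrow-derived dendritic cells before and after lipopolysaccharide (LPS). The list of 43 genes was given by name, and each gene was found through the RefSeq accession of its array probe. A gene with several probes was represented by the one with the highest mean intensity. In all, 42 of the 43 genes were measured among 11095 genes tested; no probe was matched by accession to Cd68, a heavily glycosylated endosomal and lysosomal membrane protein. On each of the 12 arrays the Cy5 signal of every measured gene was well above background, and none was saturated, so no member was lost to, or selected by, the filter on dim probes.

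Marrow of mouse femur and tibia, after removal of its B and T cells, was grown for 5 days with 10 ng/ml GM-CSF and 5 ng/ml IL-4, cytokines that drive marrow precursors towards dendritic cells, and the cultured cells were collected without a further sort. The 4 groups were unstimulated cells (0 h) and cells given 100 ng/ml LPS for 1, 6 or 24 h, with 3 biological replicates each, carrying the donor letters A, B and C in every group. The labels gave no strain, genotype, age or sex. Each sample was labelled with Cy5 and hybridised on a 2-colour array against Cy3-labelled Universal mouse reference RNA, a commercial pool, with no dye swap. All values below are log2 ratios of Cy5 to Cy3 or differences between group means of those ratios, and a positive difference means a higher level in the group named first. The only unstimulated cells were those at 0 h, so the effect of LPS and that of longer culture or handling cannot be told apart. In RNA from a whole culture, fewer cells of a type and less RNA per cell cannot be told apart either.

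Lysosomes are acidic organelles that break down proteins, glycans and lipids delivered by endocytosis, phagocytosis and autophagy. Their hydrolases work at the low pH kept by the vacuolar H+-ATPase (V-ATPase), and heavily glycosylated proteins line their membrane. In dendritic cells the same proteases trim antigens and the invariant chain for presentation on MHC class II, and maturation changes how strongly the compartment is acidified and how fast cargo is degraded. The transcription factor TFEB and its relatives bind the CLEAR element, whose inner 8 bases are TCACGTGA, upstream of many lysosomal genes.

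Promoters were examined because the CLEAR element is the best known sequence that lysosomal genes share. RefSeq (GRCm38.p6) promoter windows, from 250 bases before to 50 bases after the transcription start, were matched by symbol for 36 of the 43 genes (42 windows). The core hexamer CACGTG was held by 14 of the 42 windows (33.3%), against 7.15% of all 32851 windows of the same length. The 8-base motif TCACGTGA, which contains the hexamer, was held by 7 windows (16.7%) against 0.974% of all, those of Atp6v0d1, Atp6v1a, Cln3, Ctsa, Ctsd, Gla and Mcoln1. The full 10-base CLEAR form, the 8-base motif with a further G before and C after it, was held by 1 window (2.38%). This window was that of Cln3, against 0.326% of all. All 3 motifs are palindromes, so both strands give the same matches. A match is a description of the letters and says nothing of binding. The 250 bases before the start are shown for the 4 genes that held TCACGTGA and passed the test below, in the order of the size of their change, with that motif in capitals.
Cln3 (chr7:126583237-126583486, minus strand): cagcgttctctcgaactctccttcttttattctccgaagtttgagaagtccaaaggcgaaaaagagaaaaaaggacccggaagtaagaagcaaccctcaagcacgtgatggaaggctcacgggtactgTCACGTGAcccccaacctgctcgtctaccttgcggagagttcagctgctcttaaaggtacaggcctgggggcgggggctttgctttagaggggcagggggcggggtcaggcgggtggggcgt
Gla (chrX:134601006-134601255, minus strand): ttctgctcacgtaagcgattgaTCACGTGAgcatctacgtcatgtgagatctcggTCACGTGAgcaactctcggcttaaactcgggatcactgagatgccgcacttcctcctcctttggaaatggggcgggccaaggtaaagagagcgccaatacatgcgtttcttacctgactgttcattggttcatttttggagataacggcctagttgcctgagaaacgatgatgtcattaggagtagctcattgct
Ctsd (chr7:142387828-142388077, minus strand): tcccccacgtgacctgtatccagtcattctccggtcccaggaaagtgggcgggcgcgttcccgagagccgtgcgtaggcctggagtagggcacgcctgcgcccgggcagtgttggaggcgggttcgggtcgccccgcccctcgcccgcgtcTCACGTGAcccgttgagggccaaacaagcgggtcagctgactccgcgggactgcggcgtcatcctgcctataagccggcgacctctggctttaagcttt
Atp6v1a (chr16:44139260-44139509, minus strand): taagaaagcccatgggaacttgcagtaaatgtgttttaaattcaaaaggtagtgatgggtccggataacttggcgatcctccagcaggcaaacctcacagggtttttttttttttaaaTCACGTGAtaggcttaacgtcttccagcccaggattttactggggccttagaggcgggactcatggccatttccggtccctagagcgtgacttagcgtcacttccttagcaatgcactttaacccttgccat
The motif began 122 bases before the start in Cln3, 99 in Ctsd, 132 in Atp6v1a, and at 228 and 195 bases in Gla, the only one of these 4 windows with 2 copies.

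The lysosomal genes did not move as a block. After LPS some of the proteases, the lipid carrier Npc2 and several membrane proteins rose, while Sgsh, Ctsc and Ppt1 fell. Of the 10 glycosidases, 5 rose and 3 fell at 24 h. The test was limma's moderated test over 11095 genes with Benjamini-Hochberg adjustment, called at an adjusted p under 0.05, and an F test over the 4 groups called 32 of the 42 (51.7% of all genes were called). At 1 h 10 members were higher and 0 lower (23.8%), where 7.45% of all genes were called, 4.06% higher and 3.39% lower. At an unadjusted p under 0.05 in limma, 28 members were higher and 1 lower, against 1307 and 1380 of all 11095 genes. The members' median difference was 0.42 against 0.02 for all genes, and 36 of 42 lay above 0. At 6 h 13 were higher and 4 lower (40.5%), a share close to the 39.6% of all genes called (16.1% higher, 23.5% lower), with a median of 0.22 against -0.04. At 24 h 14 were higher and 7 lower (50% against 39.4% of all genes; 18% higher, 21.5% lower), with a median of 0.25 against 0.02. With slide as a block the members' medians were 0.48, 0.32 and 0.33 at 1, 6 and 24 h. Differences taken within slides gave 0.48, 0.37 and 0.16. With median centring of each array in place of loess they were 0.28, 0.35 and 0.04, against -0.12, 0.05 and -0.11 for all genes. With every local background used as deposited they were 0.40, 0.08 and 0.25. The 3 comparisons with unstimulated cells share the unstimulated arrays.

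Between LPS times, 3 members rose and 11 fell from 1 h to 6 h (33.3% against 28.2% of all genes; 12% higher, 16.2% lower), with a median of -0.22 against -0.09. That gap from all genes was not seen with slide held fixed: the median was -0.04 against -0.06 with slide as a block and -0.05 against -0.05 within slides. With median centring it was 0.08 against 0.13. From 6 h to 24 h, 5 rose and 4 fell (21.4% against 18.4%; 9.64% higher, 8.76% lower), with a median of -0.04 against 0.04. The count from 1 h to 6 h was 8 without the 1 h array of donor A, 7 without the 6 h array of donor A and 8 without that of donor B. Calls among all genes fell in these fits too, from 3128 to 2396, 2083 and 2273 in the same order. Scaling moved the splits. With median centring of each array in place of loess the higher and lower members numbered 13 and 2 at 6 h, 7 and 7 at 24 h, 3 and 2 from 1 h to 6 h, and 1 and 7 from 6 h to 24 h. With the Cy5 channel alone they numbered 8 and 6 at 6 h and 10 and 9 at 24 h. Of all genes, median centring called 2018 at 6 h, 2335 at 24 h, 1450 from 1 h to 6 h and 927 from 6 h to 24 h. The main fit called 4397, 4372, 3128 and 2042 there, and Cy5 alone called 4238 at 6 h and 4153 at 24 h.

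**Figure D1:**
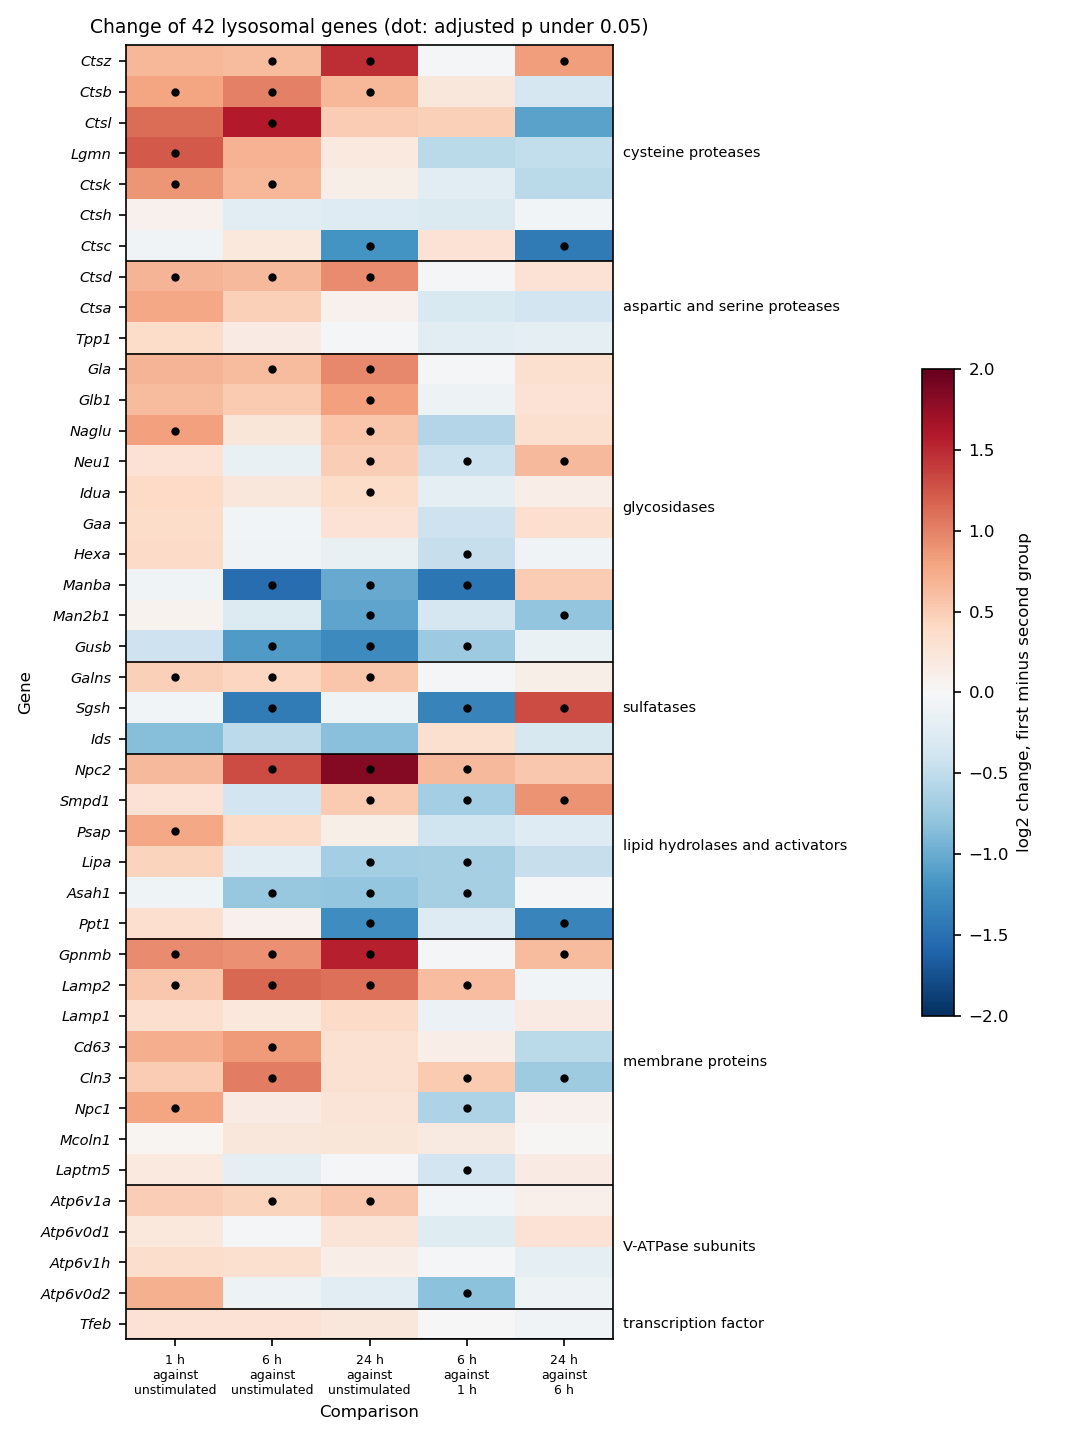
Log2 difference between group means (colour, first group minus second) for the 42 measured lysosomal genes (rows, grouped by role) in 5 comparisons (columns); a dot marks an adjusted p under 0.05 by limma over 11095 genes. The 1 h column holds dots on rises only (10 members), whereas the 24 h column holds 14 rises and 7 falls.

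**Figure D2:**
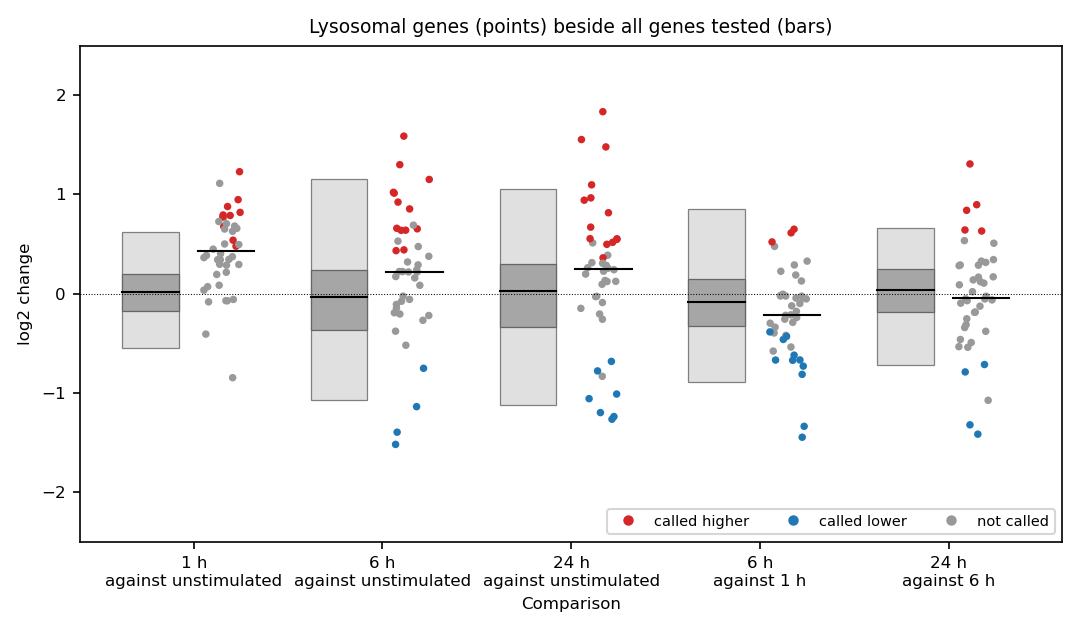
Log2 differences of the 42 lysosomal genes (points, coloured by call, with a line at their median) beside all 11095 genes (light bars from the 5th to the 95th percentile, dark bars the middle quartiles, a line at the median) in the same comparisons. The members' median lay at 0.42 at 1 h against 0.02 for all genes, and at -0.22 from 1 h to 6 h against -0.09, the latter becoming -0.04 against -0.06 with slide as a block and 0.08 against 0.13 with median centring.

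The arrays were printed on 4 slides, and the unstimulated arrays shared a slide with neither the 6 h nor the 24 h arrays. Slide 1 held the 3 unstimulated arrays and 1 array at 1 h, and every contrast with unstimulated cells that holds slide fixed rests on that 1 h array of donor A. With slide as a block, 0 members were called at 1 h by limma, where 225 of all genes were. At an unadjusted p under 0.05 in that fit, 20 members were higher and 0 lower, against 937 and 760 of all 11095 genes. At 6 h 5 members stayed called higher and 3 lower, namely Ctsb, Ctsl, Lamp2, Npc2 and Cln3 against Gusb, Manba and Sgsh. Of all 11095 genes, 948 were called higher and 1001 lower at 6 h with the block. At 24 h 5 members stayed called higher and 4 lower, namely Ctsz, Lamp2, Npc2, Gpnmb and Gla against Ctsc, Gusb, Man2b1 and Manba. Of all genes, 849 were called higher and 913 lower at 24 h with the block. Every called member kept its sign under the block in each of the 5 comparisons. The 1 h count also rested on single arrays. It was 1 of 42 without the unstimulated array of donor A, 3 without that of donor B, 3 without the 1 h array of donor A, 1 without its donor B counterpart, and 5 if the 6 h array of donor A was left out, which enters only through the shared spread. Calls among all genes fell in these fits as well, from 827 to 338, 356, 528, 399 and 636 in the same order.

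**Figure D3:**
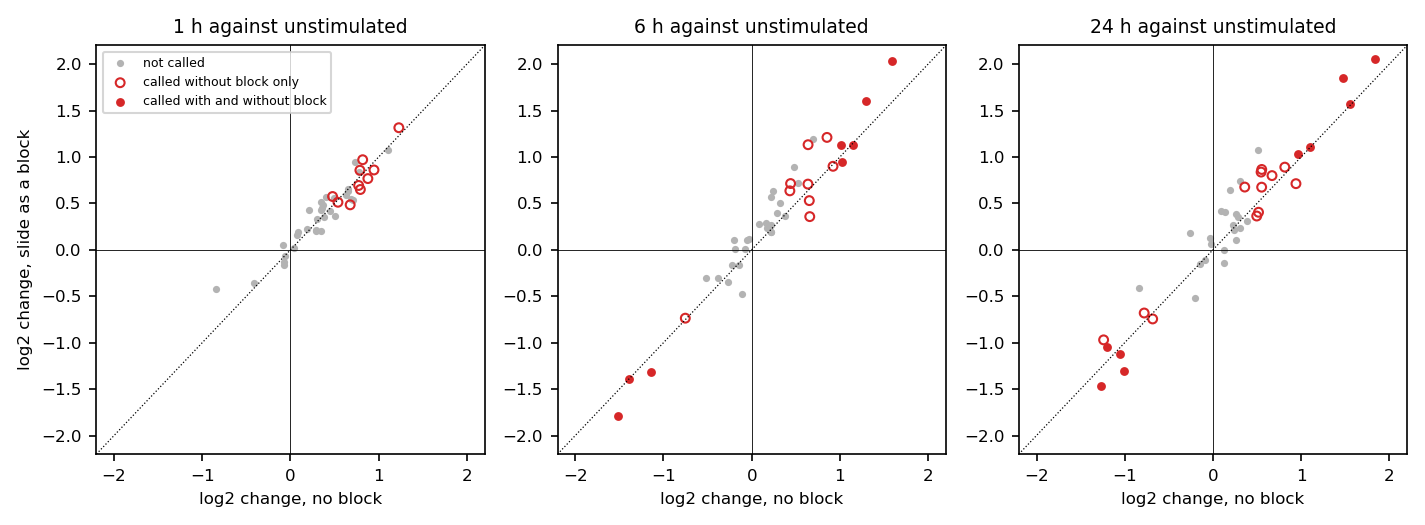
Log2 differences of the 42 lysosomal genes against unstimulated cells at 1, 6 and 24 h, without (x axis) and with (y axis) slide as a block; filled red points passed the test both ways, open red points only without the block. No point is filled at 1 h, 8 are at 6 h and 9 at 24 h, and every red point keeps its sign.

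Among the cysteine proteases, the papain-like cathepsins and the asparaginyl endopeptidase legumain, 3 of 7 rose at 1 h, 4 rose at 6 h, and at 24 h 2 rose and 1 fell. The counts by role, here and below, are read against the shares of all genes called. These were 7.45% at 1 h, 39.6% at 6 h, 39.4% at 24 h and 28.2% from 1 h to 6 h. Ctsl, the endoprotease cathepsin L, lay at -2.91, -2.93 and -2.26 (donors A, B and C) in unstimulated cells, at -1.62, -1.18 and -1.96 at 1 h, at -1.05, -0.49 and -1.79 at 6 h, and at -2.15, -1.49 and -2.92 at 24 h. The 6 h arrays all lay above the unstimulated ones, and the 24 h arrays overlapped them. The difference was 1.59 ± 0.37 (SE) at 6 h, 3.00-fold (limma, adjusted p = 0.00445; 0.0172 with slide as a block), and 0.51 ± 0.37 at 24 h (adjusted p = 0.30). At 1 h it was 1.11 (adjusted p = 0.0905, 0.0426 with donor as a block), and from 6 h to 24 h -1.08 (adjusted p = 0.0634, 0.0282 with donor as a block).

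Ctsb, cathepsin B, gave 0.76, 1.05 and 1.32 in unstimulated cells, 1.90, 1.88 and 1.71 at 1 h, 2.09, 2.14 and 1.94 at 6 h, and 1.84, 1.64 and 1.66 at 24 h. All arrays after LPS lay above all unstimulated arrays. Its rise was 0.79 ± 0.14 at 1 h (limma, adjusted p = 0.0047), 1.01 ± 0.14 at 6 h (2.02-fold, adjusted p = 0.00013) and 0.67 ± 0.14 at 24 h (adjusted p = 0.0024). The other Ctsb probe read 0.42 at 1 h, 0.29 at 6 h and -0.36 at 24 h, the last called in the opposite direction (adjusted p = 0.036 in a fit over probes), and the mean of both probes gave 0.16 at 24 h. The direction at 24 h therefore depended on the probe.

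Ctsz, the carboxypeptidase cathepsin Z, lay at 2.00, 1.50 and 1.98 in unstimulated cells, at 2.48 and 2.49 at 1 h (the donor C spot was an outlier and was dropped), at 2.55, 2.46 and 2.39 at 6 h, and at 3.11, 3.69 and 3.11 at 24 h. Every 24 h array lay above every other array. The difference was 1.48 ± 0.18 at 24 h, 2.79-fold (limma, adjusted p = 7.0e-05; 0.0081 with slide as a block), and another probe read 1.57. At 6 h it was 0.64 ± 0.18 (adjusted p = 0.0132), a call lost without the unstimulated array of donor B or the 6 h array of donor A, where the smallest difference was 0.47. From 6 h to 24 h it rose by 0.84 (adjusted p = 0.0079; 0.126 with slide as a block).

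Ctsc, the dipeptidyl peptidase that activates granule serine proteases, took the other course. It lay at 3.75, 4.00 and 3.97 in unstimulated cells, at 3.75, 3.96 and 3.80 at 1 h, at 4.04, 4.51 and 3.83 at 6 h, and at 2.67, 3.01 and 2.44 at 24 h. The 24 h arrays all lay below the other 9, which overlapped among themselves. It fell by 1.20 on the log2 scale at 24 h (SE 0.18, limma, adjusted p = 0.00025; 2.30-fold lower), and from 6 h to 24 h by 1.42 (adjusted p = 0.00029; 0.0025 with slide as a block).

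Lgmn, the asparaginyl endopeptidase, gave 0.82, 1.00 and 1.61 in unstimulated cells, 2.46, 2.93 and 1.72 at 1 h, 1.99, 2.25 and 1.26 at 6 h, and 1.52, 1.58 and 0.92 at 24 h. The 1 h arrays did not overlap the unstimulated ones, and the arrays at 6 h and 24 h did. It was called at 1 h only, at 1.23 ± 0.33 (limma, adjusted p = 0.0405; 0.16 with slide as a block), and not when any single one of 5 arrays was left out (unstimulated A and B, 1 h A and B, and 6 h A), with differences from 0.95 to 1.55 over all such fits. Ctsk, a collagen-degrading cathepsin, rose by 0.88 at 1 h and 0.66 at 6 h (adjusted p = 0.0255 and 0.0244), but the 1 h call was lost without the unstimulated array of donor A or C or any 1 h array (0.67 to 1.09), and the 6 h call without the unstimulated or 6 h array of donor A or C (0.45 to 0.87). Its 6 h difference was -0.036 when every local background was used as deposited. Ctsh, an aminopeptidase, ranged from -0.26 to 0.08 against unstimulated cells and passed in no comparison.

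Of the 3 aspartic and serine proteases, Ctsd alone passed, at all 3 times. Cathepsin D, the aspartic protease of the compartment and a holder of the motif shown above, rose by 0.68 ± 0.17 at 1 h (limma, adjusted p = 0.0314), 0.65 at 6 h (adjusted p = 0.0083) and 0.94 at 24 h (1.92-fold, adjusted p = 0.00084), and its other probe read 0.87, 0.94 and 1.13. No array after LPS overlapped the unstimulated ones. None of the 3 calls passed under the slide block (adjusted p = 0.316, 0.239 and 0.13). The 1 h call was lost without the unstimulated array of donor A or B or the 1 h array of donor B (0.47 to 0.79 over all such fits). Ctsa, the carboxypeptidase that shields sialidase and beta-galactosidase, was at 0.77 at 1 h (adjusted p = 0.0612; 0.0457 with donor as a block). Tpp1, a tripeptidyl peptidase, was at 0.37 at 1 h and -0.03 at 24 h, while another of its probes read -0.85 at 24 h (adjusted p = 0.0028). A further Ctsa probe read -0.44 there (adjusted p = 0.0135), so the 3 Ctsa probes did not share a direction at 24 h, whereas both Tpp1 probes lay below 0.

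The glycosidases, which strip sugars from glycoproteins, glycolipids and glycosaminoglycans, split in direction: at 24 h 5 of 10 rose and 3 fell. Manba, beta-mannosidase, lay at 1.98, 2.19 and 2.03 in unstimulated cells, at 1.93, 1.99 and 2.06 at 1 h, at 0.37, 0.61 and 0.66 at 6 h, and at 1.55, 0.72 and 0.90 at 24 h. The arrays at 6 h and 24 h all lay below those at 0 h and 1 h, which overlapped. It fell by 1.52 on the log2 scale at 6 h (SE 0.18, 2.87-fold lower; limma, adjusted p = 3.7e-05, 0.0041 with slide as a block) and by 1.01 at 24 h (adjusted p = 0.00077). Its other probe read -1.31 and -0.96.

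Gusb, beta-glucuronidase, gave 0.06, 0.15 and -0.05 in unstimulated cells, -0.31, -0.47 and -0.29 at 1 h, -1.02, -1.33 and -0.92 at 6 h, and -0.67, -1.68 and -1.29 at 24 h. Each LPS group lay below the unstimulated arrays, and the 6 h and 24 h groups overlapped. The difference was -0.41 at 1 h (limma, adjusted p = 0.245), -1.14 ± 0.21 at 6 h (adjusted p = 0.00082; 0.0173 with slide as a block) and -1.27 ± 0.21 at 24 h (2.40-fold lower, adjusted p = 0.00041; 0.0146 with slide as a block). The fall from 1 h to 6 h, -0.73 (adjusted p = 0.0182), was lost without the 1 h array of donor A or C or the 6 h array of donor B, with -0.61 as the smallest. Man2b1, the lysosomal alpha-mannosidase, fell later. It lay at 1.72, 1.39 and 1.88 in unstimulated cells, at 1.82, 1.55 and 1.82 at 1 h, at 1.44, 1.19 and 1.55 at 6 h, and at 0.97, 0.26 and 0.57 at 24 h. Only the 24 h arrays stood clear of the rest, at -1.06 ± 0.19 (2.08-fold lower; limma, adjusted p = 0.00068, 0.0328 with slide as a block).

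The glycosidases that rose did so by less. Gla, alpha-galactosidase A, whose window held the motif at 2 places, was higher by 0.64 at 6 h and 0.96 at 24 h (limma, adjusted p = 0.0212 and 0.0020; at 24 h 0.0256 with slide as a block), and by 0.68 at 1 h (adjusted p = 0.0555; 0.0147 with donor as a block). Its other probe read 0.08 and 0.14 at 6 h and 24 h. The 6 h call was lost without the unstimulated array of donor A or the 6 h array of donor A or B (0.51 to 0.75 over all such fits). Glb1, beta-galactosidase, was higher by 0.81 at 24 h (adjusted p = 0.0059), Neu1, the sialidase, by 0.50 (adjusted p = 0.0051), and Idua, which acts on dermatan and heparan sulfate, by 0.36 (adjusted p = 0.0348). None of these 3 passed under the slide block (adjusted p = 0.104, 0.303 and 0.0591). Naglu, a heparan sulfate enzyme, was higher by 0.82 at 1 h and 0.55 at 24 h (adjusted p = 0.0329 and 0.0498), and lost the latter call with donor as a block (adjusted p = 0.0586) and without 9 of the 12 arrays in turn (0.32 to 0.77). The 1 h call of Naglu was lost without the unstimulated or 1 h array of donor A or B or the 6 h array of donor A (0.59 to 1.04). The call of Idua was lost without the unstimulated array of donor A or B or the 24 h array of donor B or C (0.29 to 0.44). Neu1 dipped from 1 h to 6 h (-0.43, adjusted p = 0.0165) before rising by 0.64 to 24 h (adjusted p = 0.0031). The dip was lost without the 1 h array of donor B or the 6 h array of donor A (-0.48 to -0.34). Hexa, the alpha subunit of beta-hexosaminidase, was called only from 1 h to 6 h, at -0.46 (adjusted p = 0.0481), a call lost without any single one of 11 arrays (-0.62 to -0.29). Gaa, which degrades glycogen, reached -0.42 there (adjusted p = 0.0508; 0.0458 with donor as a block).

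The 3 sulfatases each did something different. Sgsh, the sulfamidase of heparan sulfate breakdown, lay at -0.08, -0.17 and 0.01 in unstimulated cells, at -0.15, -0.06 and -0.21 at 1 h, at -1.48, -1.44 and -1.51 at 6 h, and at -0.23, -0.20 and -0.09 at 24 h. The 6 h arrays stood far below the other 9, which overlapped, and had an SD of 0.034. Sgsh fell by 1.40 on the log2 scale at 6 h (SE 0.10, 2.63-fold lower; limma, adjusted p = 7.0e-07, 0.0018 with slide as a block), and was back by 24 h, at -0.09 against unstimulated cells (adjusted p = 0.518), having risen by 1.31 from 6 h (adjusted p = 2.1e-05). The 6 h arrays lay on slides 3 and 4, each shared with arrays of other times, and the differences taken within slides were -1.25 from 1 h to 6 h and 1.35 from 6 h to 24 h. With every local background used as deposited neither of the latter comparisons passed.

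Galns, which removes sulfate from keratan and chondroitin sulfate, was higher at all 3 times by 0.48, 0.43 and 0.55 (limma, adjusted p = 0.049, 0.0208 and 0.0055), with no overlap between any LPS group and the unstimulated arrays. The 1 h call was lost with donor as a block (adjusted p = 0.0503) and without 10 of the 12 arrays in turn (0.34 to 0.59), the 6 h call without the unstimulated array of donor B or the 6 h array of donor A (0.29 to 0.54), and all 3 with slide as a block. Ids, iduronate sulfatase, was at -0.85, -0.52 and -0.83 (adjusted p = 0.122, 0.221 and 0.0523). With donor as a block it passed at 1 h and 24 h (adjusted p = 0.0386 and 0.0122), and its donors spread widely, from -0.95 to 0.25 at 1 h. Its other probe read -0.53, -0.34 and -0.38 and passed at 1 h and 24 h in the fit over probes (adjusted p = 0.0252 and 0.0341).

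**Figure D4:**
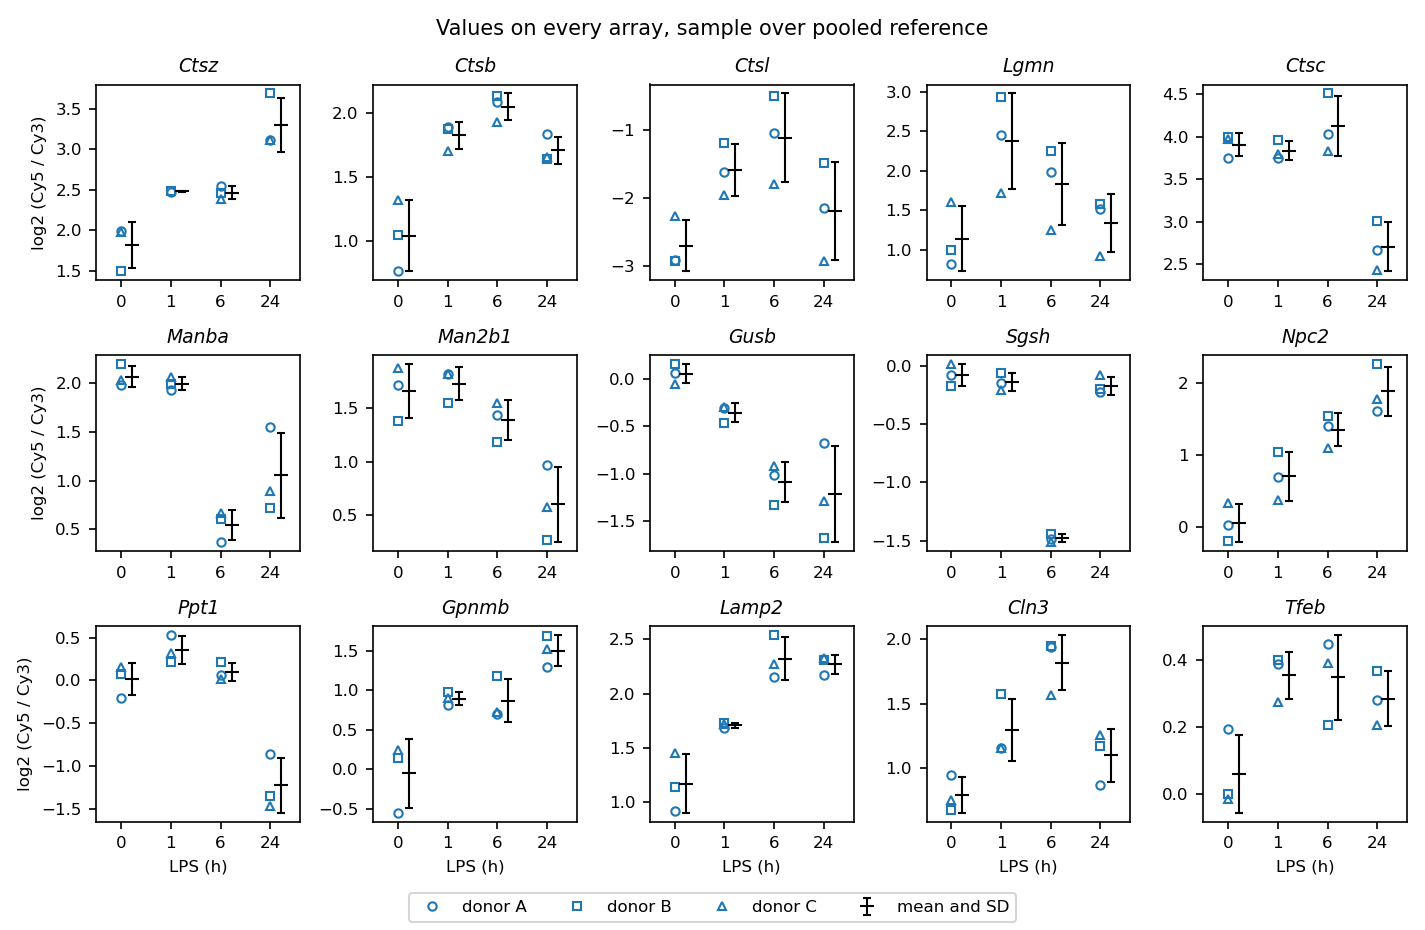
Log2 ratio of sample to reference (y axis, a separate scale per panel) on every array against hours of LPS (x axis, not to scale) for the 14 members called with a difference of at least 1 on the log2 scale, and for Tfeb; symbols mark the donor letter, and bars the mean and SD of 3 arrays (2 for Ctsz at 1 h). Npc2 rises through 24 h to a mean of 1.88, Sgsh drops to -1.48 at 6 h alone, and Ctsc and Ppt1 drop at 24 h alone.

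Of the 6 lipid hydrolases and activators, 2 rose and 3 fell at 24 h, and Npc2 showed the largest difference of any member. Npc2, the soluble carrier that takes cholesterol from lipoproteins and passes it to the membrane protein Npc1, lay at 0.02, -0.20 and 0.33 in unstimulated cells, at 0.68, 1.04 and 0.37 at 1 h, at 1.40, 1.54 and 1.09 at 6 h, and at 1.61, 2.26 and 1.77 at 24 h. No group overlapped the one before it. The difference was 0.65 at 1 h (limma, adjusted p = 0.0846), 1.30 ± 0.21 at 6 h (2.46-fold, adjusted p = 0.00042) and 1.83 ± 0.21 at 24 h (3.56-fold, adjusted p = 3.9e-05). With slide as a block the last were 1.60 and 2.05 (adjusted p = 0.0048 and 0.0024). The step from 1 h to 6 h, 0.65 (adjusted p = 0.0378), was lost without the unstimulated array of donor A, the 1 h array of donor A or C, or the 6 h array of donor A or B (0.48 to 0.82).

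Npc1 itself, described here beside its partner, was called higher at 1 h only, at 0.79 ± 0.22 (limma, adjusted p = 0.0445; 0.25 with slide as a block), and was at 0.17 and 0.26 at 6 h and 24 h. Its 1 h call was lost without 8 of the 12 arrays in turn (0.49 to 1.02) and its call from 1 h to 6 h, -0.62 (adjusted p = 0.0486), without 11 (-0.85 to -0.32). The genes of the pair thus differed in when they passed, which was not tested as a difference between genes.

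Ppt1, the thioesterase that removes palmitate from proteins, lay at -0.20, 0.08 and 0.16 in unstimulated cells, at 0.53, 0.22 and 0.32 at 1 h, at 0.06, 0.21 and 0.02 at 6 h, and at -0.86, -1.35 and -1.46 at 24 h. As with Ctsc, only the 24 h arrays stood below the rest. It fell by 1.24 on the log2 scale at 24 h (SE 0.16, 2.36-fold lower; limma, adjusted p = 9.2e-05, 0.0657 with slide as a block) and by 1.32 from 6 h to 24 h (adjusted p = 0.00023; 0.0063 with slide as a block). Asah1, acid ceramidase, fell by 0.75 at 6 h and 0.78 at 24 h (adjusted p = 0.0030 and 0.0025). Lipa, the acid lipase that frees cholesterol from its esters, fell by 0.68 at 24 h (adjusted p = 0.0041). None of these passed under the slide block (adjusted p = 0.0957, 0.134 and 0.134). Smpd1, acid sphingomyelinase, whose product ceramide is the substrate of Asah1, was higher by 0.52 at 24 h (adjusted p = 0.0302) after a dip from 1 h to 6 h (-0.67, adjusted p = 0.0112) and a rise of 0.90 from 6 h to 24 h (adjusted p = 0.0038). The 24 h call against unstimulated cells was lost without the unstimulated or 24 h arrays of donor A or B in turn (0.43 to 0.60), and the dip without the 6 h array of donor A (-0.82 to -0.48). Psap, the precursor of the saposins that present lipids to these enzymes, was higher at 1 h by 0.77 (adjusted p = 0.0339), a call lost without any single one of 4 arrays, the unstimulated and 1 h ones of donors A and B (0.60 to 0.96).

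Among the 8 membrane proteins measured, 3 rose at 1 h, 4 at 6 h and 2 at 24 h. Gpnmb, a glycoprotein induced in macrophages under lysosomal stress, lay at -0.55, 0.14 and 0.25 in unstimulated cells, at 0.81, 0.98 and 0.90 at 1 h, at 0.69, 1.18 and 0.73 at 6 h, and at 1.29, 1.69 and 1.51 at 24 h. All arrays after LPS lay above all unstimulated ones. It rose by 0.95 ± 0.20 at 1 h (limma, adjusted p = 0.0139), 0.92 at 6 h (adjusted p = 0.0029) and 1.55 at 24 h (2.93-fold, adjusted p = 8.5e-05), the last also with slide as a block (1.57, adjusted p = 0.0264). The 1 h call was lost without the unstimulated array of donor A or the 1 h array of donor B (0.70 to 1.10).

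Lamp2, a main glycoprotein of the lysosomal membrane and, in one splice form, the receptor of chaperone-mediated autophagy, gave 0.92, 1.14 and 1.46 in unstimulated cells, 1.69, 1.73 and 1.72 at 1 h, 2.16, 2.54 and 2.27 at 6 h, and 2.17, 2.31 and 2.33 at 24 h. Each group up to 6 h lay above the one before, and the 6 h and 24 h groups overlapped. The difference was 0.54 at 1 h (limma, adjusted p = 0.0409), 1.15 ± 0.14 at 6 h (2.22-fold, adjusted p = 5.7e-05; 0.0264 with slide as a block) and 1.10 ± 0.14 at 24 h (2.14-fold, adjusted p = 9.0e-05; 0.0345 with slide as a block). The 1 h call was lost without any single one of 7 arrays (0.41 to 0.68), and the other probe read 1.09 at 6 h and 0.55 at 24 h. Lamp1, its close relative, was at 0.34, 0.22 and 0.39 (adjusted p = 0.222, 0.327 and 0.078), and passed at 24 h with donor as a block (adjusted p = 0.0333).

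Cln3, a membrane protein mutated in juvenile neuronal ceroid lipofuscinosis and the only member whose promoter window held the 10-base motif, gave 0.95, 0.68 and 0.75 in unstimulated cells, 1.16, 1.57 and 1.16 at 1 h, 1.93, 1.94 and 1.57 at 6 h, and 0.87, 1.18 and 1.25 at 24 h. The 6 h arrays lay above all unstimulated and 24 h arrays, and those 2 groups overlapped each other. It was higher at 6 h by 1.02 ± 0.16 (2.03-fold; limma, adjusted p = 0.00030, 0.0452 with slide as a block) and fell by 0.71 from 6 h to 24 h (adjusted p = 0.0089). Its step from 1 h to 6 h, 0.52 (adjusted p = 0.0277), was lost without the 1 h array of donor A or C or the 6 h array of donor A or B (0.45 to 0.66). Cd63, a tetraspanin of late endosomes, was likewise called higher at 6 h only, at 0.85 (adjusted p = 0.0091; 0.088 with slide as a block). Laptm5, a leukocyte transmembrane protein, was called only from 1 h to 6 h, at -0.39 (adjusted p = 0.0327), a call lost without any single one of the 5 arrays other than the 1 h array of donor C in those groups (-0.48 to -0.31). Mcoln1, the lysosomal calcium channel mucolipin 1, ranged from 0.03 to 0.24 and passed in no comparison.

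Of the 4 V-ATPase subunits measured, 1 rose at 6 h and at 24 h and another fell from 1 h to 6 h. Atp6v1a, the catalytic subunit of the cytosolic sector and a holder of the motif, was higher by 0.44 at 6 h and 0.55 at 24 h (limma, adjusted p = 0.0444 and 0.0164). The 6 h call was lost without any single one of 7 arrays (0.33 to 0.59), and the 24 h call without the unstimulated or 24 h array of donor B (0.46 to 0.64). Both were lost under the slide block (adjusted p = 0.0781 and 0.0535), whereas at 1 h its 0.49 passed with donor as a block (adjusted p = 0.029). Atp6v0d2, the d subunit isoform found in osteoclasts and some myeloid cells, fell from 1 h to 6 h by 0.81 on the log2 scale (adjusted p = 0.0101; 0.0179 with slide as a block), after 0.70 at 1 h (adjusted p = 0.0552). The broadly expressed isoform Atp6v0d1 and the regulatory subunit Atp6v1h passed in no comparison, with differences between -0.03 and 0.34 against unstimulated cells.

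Tfeb, the factor for which the CLEAR motif is known, gave 0.19, 0.00 and -0.02 in unstimulated cells, 0.39, 0.40 and 0.28 at 1 h, 0.45, 0.21 and 0.39 at 6 h, and 0.28, 0.37 and 0.21 at 24 h. Every LPS array lay above every unstimulated array. The differences were small, 0.30 ± 0.11, 0.29 and 0.23 at 1, 6 and 24 h, and none passed (limma, adjusted p = 0.128, 0.056 and 0.13). An array reads transcript levels only, so the location and phosphorylation of the TFEB protein, by which it is mainly regulated, were not measured.

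Members with and without CACGTG in their window were set side by side as a description. Of the 14 with the hexamer, 5 were higher and 1 (Sgsh) lower at 6 h, and 5 were higher and 0 lower at 24 h, with medians of 0.46 and 0.35. The lowest of them at 24 h was Sgsh at -0.09, so limma called none of the 14 lower at an unadjusted p under 0.05 either. That holds for the probes used. A further probe of Ctsa, which is among the 14, read -0.44 at 24 h (limma over probes, adjusted p = 0.0135). Of the 21 measured members whose window lacked it, 6 were higher and 2 lower at 6 h, and 7 were higher and 6 lower at 24 h, with medians of 0.16 and 0.12. The 6 that fell at 24 h were Ctsc, Gusb, Man2b1, Manba, Lipa and Ppt1. Of all genes, 39.6% were called at 6 h (16.1% higher, 23.5% lower) and 39.4% at 24 h (18% higher, 21.5% lower). The totals called among the 14 lay near those shares, but with more higher than lower at both times. The total among the 21 lay near the share of all genes at 6 h and above it at 24 h. The difference between these sets was not tested.

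Other lysosomal genes, in lists drawn up with the earlier results known, also held genes called in both directions. The shares to read their counts against are the 39.6% of all genes called at 6 h (16.1% higher, 23.5% lower) and the 39.4% at 24 h (18% higher, 21.5% lower). For the further hydrolases at 6 h, only the total called lay near the share of all genes. More of them were higher than lower, whereas among all genes more were lower. Of 30 further hydrolases, 8 were higher and 5 lower at 6 h, and 9 higher and 7 lower at 24 h. Acp5, tartrate-resistant acid phosphatase, was higher by 1.49 at 6 h and 2.70 at 24 h (limma, adjusted p = 0.0021 and 3.4e-05), and Naaa, the acid amidase that degrades palmitoylethanolamide, fell by 1.16 and 2.07 on the log2 scale (adjusted p = 0.0011 and 2.1e-05). Of 27 further membrane proteins and transporters, 7 were higher and 9 lower at 6 h, led by the chloride exchanger Clcn7 (0.94) and the endolysosomal cation channel Tpcn1 (-2.27), and 6 higher and 3 lower at 24 h, led by the metal transporter Slc11a1 (1.11) and the sialomucin Cd164 (-1.42). Of 14 further V-ATPase subunits, 4 were higher and 1 lower at 6 h, and 6 higher and 2 lower at 24 h, with Atp6v0a2 at -1.14.

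The genes that control, supply or restrain the compartment are read against the same shares of all genes, 39.6% at 6 h and 39.4% at 24 h. Slpi, a secreted inhibitor of serine proteases, was higher by 3.20 at 6 h and 3.88 at 24 h (limma, adjusted p = 1.3e-05 and 4.3e-06), in a list of 11 protease inhibitors with 4 higher and 2 lower at 6 h and 4 higher and 1 lower at 24 h. Of 21 genes of the MiT/TFE family and lysosomal nutrient sensing, 4 were higher and 6 lower at 6 h, and 4 higher and 2 lower at 24 h. Mitf, a relative of Tfeb, was higher by 1.13 at 6 h (adjusted p = 0.0015; 0.0568 with slide as a block), and Tfec, another, fell by 1.10 on the log2 scale at 24 h (adjusted p = 0.0312; 0.0534 with slide as a block). Of 25 genes that sort enzymes to lysosomes, 4 were higher and 2 lower at 6 h, with the cation-dependent mannose 6-phosphate receptor M6pr at 0.75, and 5 higher and 1 lower at 24 h. Of 24 autophagy genes, 7 were higher and 1 lower at 6 h, and 14 higher and 1 lower at 24 h, with the cargo receptor Sqstm1 at 2.06 (adjusted p = 0.00021).

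Markers of other cells changed over the same times. The summed level of 12 neutrophil markers in the Cy5 channel ran from 44600 to 71900 units over the unstimulated arrays, 9710 to 21300 at 1 h, 5780 to 9650 at 6 h and 2420 to 14200 at 24 h, with Elane and Retnlg not above background in any group. Of the 9 that were tested, 8 were lower at 24 h, led by S100a8 at -3.38. The sum of 12 macrophage or monocyte markers ran from 11000 to 14800 in unstimulated cells and 32200 to 48100 at 24 h, where of 11 tested 2 were higher, with Cd14 at 4.54, and 5 lower, with Mrc1 at -2.92. The sum of 14 conventional dendritic cell markers ran from 118000 to 144000 and 167000 to 186000, with Clec9a and Cd209a not above background in any group, and that of 9 osteoclast markers from 31500 to 41600 and 42300 to 48700, with Calcr not above background. At 24 h 5 of 12 dendritic cell markers tested were higher and 1 lower. Of 8 osteoclast markers tested, 2 were higher, led by Acp5 (2.70), and 2 lower, led by Nfatc1 (-0.71), with a median of -0.06. Of all genes, 39.4% were called at 24 h. The B, T, NK, mast cell and erythroid lists stayed at sums of 317 to 1240 and the stromal list at 2170 to 3290. Their part in the lysosomal results was not tested. In the reference channel, the members' group means differed by -0.27 to 0.31 over the 5 comparisons.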

How the data were processed

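Median spot and background intensities of both channels came from the deposited scanner files (Agilent Feature Extraction 10.7.3.1, per the file headers; the submitters' processing notes name limma). The authors' normalised log2 ratios, also deposited, were an alternative; each array's values here correlated with them at 0.9992 or more. Background was corrected by normexp (offset 50), with local backgrounds that the scanner marked as outliers replaced by the array median. Outlier spots were dropped (137 to 234 per array) and loess (span 0.3) was run within arrays, with control spots at weight 0. Of 41174 probes, 21750 were well above background in Cy5 on all 3 arrays of a group, and the brightest probe stood for each of 11095 genes. The share of Cy5 spots well above background was 48.1% to 57.6% per array, and the number of arrays limits the precision.

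One limma fit (3.58.1, R 4.3.3) over 12 arrays, with 1 mean per group (8 residual degrees of freedom), gave every difference, SE and p-value, adjusted by Benjamini-Hochberg over all genes. The limma fit, but not the steps before it, was tested on simulated gene values drawn without slide or donor effects. Where the labels name a donor letter, all 4 groups carry it, so donor was entered as a block in an alternative; deviations from the group means correlated at a median of 0.109 over 18 same-letter pairs of arrays and -0.0133 over 36 others. Other alternatives were slide as a block, differences within slides (chosen after seeing the data), the scanner's processed signals, other background and scaling choices, filters, probe means and each array left out. The members and lists were chosen with earlier results of these data known. Values on every array are given for members called with a difference of at least 1 on the log2 scale and for Tfeb. From the other lists, the called gene with the largest rise or fall in a comparison could be named. Genome coordinates of probes are not used here.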

Additional observations from a re-analysis of the deposited data

How the results depend on the processing

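Of 71 calls of members over the 5 comparisons, 71 held with probes kept only where well above background on all 12 arrays, 70 in the deposited value table, 69 with the replicate block (donor letter), 68 with probe means, 62 without the filter, 58 with scaling between arrays, 55 with processed signals, 46 with Cy5 alone, 41 with every local background as deposited, 36 with median centring and 31 with slide as a block. All 70 with a within-slide value kept their sign there. The sign turned once, for Ctsk at 6 h (-0.036 with backgrounds as deposited). The replicate block gave 15, 18 and 22 members at 1, 6 and 24 h, 15 from 1 h to 6 h and 11 from 6 h to 24 h, and 33 by the F test, against 10, 17, 21, 14, 9 and 32. With backgrounds as deposited the counts were 2 at 1 h, 11 at 6 h, 7 from 1 h to 6 h, 4 from 6 h to 24 h and 18 by the F test. Processed signals gave 3 at 1 h. Median centring gave 0 at 1 h, 5 from 1 h to 6 h and 20 by the F test. It shifted the median of all genes by -0.14 at 1 h, -0.13 at 24 h, 0.22 from 1 h to 6 h and -0.22 from 6 h to 24 h, and the members' median at 1 h was then 0.28 against -0.12 for all genes. Cy5 alone gave 1 at 1 h and 9 from 1 h to 6 h. Slide as a block gave 0 at 1 h, 8 at 6 h, 9 at 24 h, 8 from 1 h to 6 h and 15 by the F test, with 5 residual degrees of freedom in place of 8. Leaving out each array in turn gave 1 to 14 at 1 h, 12 to 19 at 6 h, 17 to 23 at 24 h, 7 to 14 from 1 h to 6 h, 8 to 10 from 6 h to 24 h and 23 to 33 by the F test. Calls among all genes changed with the setting as well. At 1 h the main fit called 827, median centring and slide as a block 225 each, and backgrounds as deposited 244. Processed signals gave 669 and Cy5 alone 774, and leaving out each array in turn gave 338 to 1046. Between 1 h and 6 h the main fit called 3128, median centring 1450 and backgrounds as deposited 1373. Cy5 alone gave 2540 and slide as a block 2728, and leaving out each array in turn gave 2083 to 3186. Why calls were lost was not tested.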
